A study of Mus musculus with 4 samples.

Results

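The 10 SR splicing factor genes described here are Srsf1, Srsf2, Srsf3, Srsf4, Srsf5, Srsf6, Srsf7, Srsf9, Srsf10 and Srsf11. They were chosen by name as members of the SR protein family, without use of their values, from the 22667 mouse genes in the table of reads, and all 10 had enough reads to be compared. Every splicing row that carries one of these symbols was taken with them, which gave 90 of 135197 rows and 52 of 91656 events.

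SR proteins bind RNA through an RNA recognition motif and act through a tail rich in arginine and serine, with which they help the spliceosome to recognise exons. Many SR genes limit their own output: the SR protein promotes inclusion of a so-called poison exon in its own pre-mRNA, the exon brings a premature stop codon into frame, and the mRNA is destroyed by nonsense-mediated decay (NMD). Because the message with the poison exon is degraded, its share in a steady-state library is usually low.

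The cells were N2a, a mouse neuroblastoma line. Transfection with siControl, which targets no gene, or with siArglu1, which targets Arglu1, lasted 48 h, and the cells then received the vehicle ethanol (Veh) or the synthetic glucocorticoid dexamethasone (Dex) at 100 nM for 4 h. Each of the 4 combinations of siRNA and treatment is 1 polyA-selected library made from the pooled mRNA of 3 cultures, so the spread between cultures was not measured. Where values of all libraries are given, Veh comes before Dex within each siRNA. All groups share the line and a transfected siRNA. Sizes are therefore given with exact intervals at the 95% level that cover counting error only, and no test was made between 2 libraries.

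The libraries held between 66074574 and 86541444 reads on genes. Arglu1 stood at 92.6 and 99.9 cRPKM, a level per length that divides reads by the mappable positions of the gene and by the size of the library, with siControl, against 23.8 and 22.6 with siArglu1. All 10 sympathetic neuroblast markers looked up were above 1 cRPKM in every library, and their summed level was 1286 and 1224 cRPKM in siControl and 1717 and 1631 in siArglu1. Of the 10, 8 were higher with siArglu1 in both pairs. Gata2 was lower, with 79.4 and 74.2 cRPKM and then 30.6 and 30.8, and so was Th, with 2.58 and 4.71 and then 1.05 and 2.54. The 9 markers of glia, immune cells, epithelium and fibroblasts summed to between 2.9 and 3.61 cRPKM. Ptprc stood at a rounded 0 cRPKM in every library, with 1 read in siControl Dex. The knockdown ratios fell with the mappable length of the gene in Veh (Spearman's rho -0.40 across 12484 genes) and in Dex (-0.23), and the ratio of Dex to Veh rose with it in siArglu1 (0.54). The part of this trend in the results below was not tested beyond the values given with the trend removed.

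Before the values, the bases that end in an annotated premature stop are shown for 6 of the 10 genes. In the GENCODE annotation, 9 of the 10 genes had at least 1 transcript annotated as an NMD target, 15 transcripts in all, and Srsf10 had none. For 6 genes, a deposited event could be tied, by the whole exon or by a shared acceptor, to an exon that carries the premature stop of such a transcript. The 7 stretches below are the 30 transcript bases that end in that stop, with the stop codon in capitals.
Srsf3-201, exon of 456 nt: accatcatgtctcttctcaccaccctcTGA
Srsf4-203, exon of 207 nt: gtaacccggttgtctcatgccccagctTAG
Srsf6-201, exon of 268 nt: gccatgacgacagcagccttttgccatTAG
Srsf7-203, exon of 460 nt: aggtttcttcgtttgagtcagtcgcctTGA
Srsf9-205, exon of 358 nt: cctgggttggagattacggattcacagTAG
Srsf11-206, exon of 109 nt: gctgaagttcttttccctggttcagccTGA
Srsf11-212, exon of 117 nt: gttgttcataaaacagcttttgaaagtTGA
The stop ended at base 34 of the exon in Srsf3, base 115 in Srsf4, base 152 in Srsf6, base 28 in Srsf7, base 82 in Srsf9, and bases 23 and 50 in the exons of Srsf11. The first 7 bases shown for Srsf11-206 and the first 2 for Srsf7-203 belong to the exon before. The splicing tables list shorter exons of 165 nt in Srsf6 and 107 nt in Srsf7 with the same acceptor as the exons shown. Both are long enough to hold the stop. As a whole exon, the one of Srsf6 is annotated in the coding transcript Srsf6-202 and in no NMD transcript, and the one of Srsf7 in neither kind.

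The SR genes differed widely among themselves in level, which was read from cRPKM because this unit is per length. Srsf2, whose protein marks nuclear speckles, had the highest level, with 348.7 and 353.4 cRPKM under siControl and 322.9 and 289.9 under siArglu1. It lay apart from Srsf5, the next gene, which ranged from 188.4 to 214.3 cRPKM over the 4 libraries. Srsf2 alone made up between 23.0% and 23.9% of the summed cRPKM of the family.

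Srsf7 followed with a range of 151.1 to 164.5 cRPKM. Below it came Srsf6 (126.6 to 139.5), Srsf3 (114.0 to 129.5), Srsf9 (95.8 to 115.6), Srsf1 (85.1 to 116.7) and Srsf10 (96.4 to 98.1), and each of these overlapped the next in range. Srsf4 (53.6 to 83.6) and Srsf11 (56.2 to 77.9) had the lowest levels and overlapped each other but not Srsf10. Of the 9 neighbouring pairs in this order, 5 overlapped. The sum over the family was 1463 and 1477 cRPKM under siControl and 1355 and 1261 under siArglu1. In this bulk RNA, fewer cells of a type and less RNA per cell cannot be told apart.

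**Figure D1:**
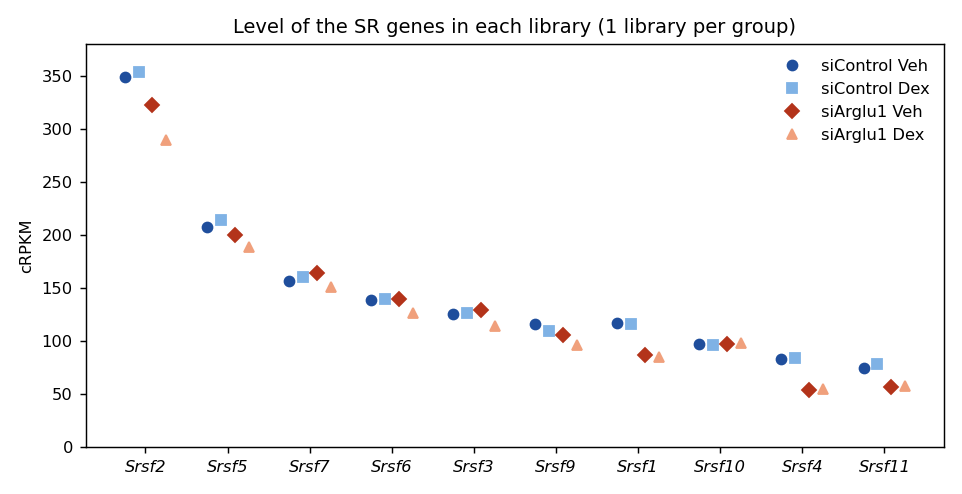
Level of each SR gene in cRPKM (linear axis) in each of the 4 libraries, with genes ordered by their mean; each point is 1 library. Srsf2 sits highest in every library at 289.9 to 353.4 cRPKM, and for Srsf4, Srsf11 and Srsf1 both siArglu1 points lie below both siControl points.

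The first comparison asks which SR genes changed in reads when Arglu1 was knocked down. None of the 10 passed the size used for knockdown, 0.81 on the log2 scale, in either pair. Among all 12497 genes with at least 75 reads, 15.7% passed it in Veh, 12.3% in Dex and 9.94% in both pairs in the same direction. The median absolute log2 ratio of the SR genes was 0.09 in Veh and 0.18 in Dex, against 0.36 and 0.30 over all genes compared.

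The largest difference was in Srsf4, an SR protein with a long RS tail. Its reads numbered 12044 and 13154 under siControl (82.6 and 83.6 cRPKM) and 7879 and 10447 under siArglu1 (53.6 and 54.7 cRPKM). Both siArglu1 libraries lay below both siControl libraries. The log2 ratio of scaled reads was -0.57 in Veh (interval -0.61 to -0.53) and -0.60 in Dex (-0.64 to -0.56), or 67.3% and 65.9% of the control. Of all genes compared, 9.26% were lower by as much or more in both pairs.

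Srsf1, the founding member of the family and known as a proto-oncogene, had 116.7 and 116.4 cRPKM under siControl and 86.4 and 85.1 under siArglu1. The groups did not overlap. Its log2 ratio was -0.38 in Veh (-0.40 to -0.36) and -0.44 in Dex (-0.46 to -0.42), and 16.2% of all genes were lower by as much or more in both pairs. Srsf1 has a longer mappable sequence than any other member, 5.31 kb, and with the length trend removed its log2 ratios became -0.12 in Veh and -0.32 in Dex.

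Srsf11, a more distant family member, had 74.4 and 77.9 cRPKM under siControl and 56.2 and 57.3 under siArglu1. Here too the siArglu1 libraries were both below the controls. The log2 ratio was -0.36 in Veh (-0.39 to -0.32) and -0.43 in Dex (-0.46 to -0.40), and it was -0.34 and -0.44 with the length trend removed. Of all genes, 17.5% were as low in both pairs.

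As read from the scaled reads, the remaining 7 genes differed less. This order changed with the length trend removed: Srsf9 was then at -0.37 in Veh and -0.34 in Dex and Srsf2 at -0.27 and -0.40, both further from 0 than Srsf1. Srsf5 was then at -0.23 and -0.31, and Srsf4 kept the largest difference with -0.68 in both pairs. With the trend left in, the values were as follows. Srsf2 was lower by a small amount in both pairs, with log2 ratios of -0.06 (-0.08 to -0.04) in Veh and -0.27 (-0.29 to -0.25) in Dex. Srsf9 was at -0.08 (-0.12 to -0.03) and -0.18 (-0.23 to -0.14). Srsf5 was at -0.00 (-0.03 to 0.02) and -0.17 (-0.20 to -0.15), so its interval held 0 in Veh.

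Srsf3, Srsf6 and Srsf7 had opposite signs in the 2 pairs. In Veh their log2 ratios were 0.09, 0.06 and 0.12, and in Dex they were -0.13, -0.13 and -0.07. With the length trend removed, Srsf3 was lower in both pairs (-0.14 and -0.27). Srsf10, whose protein represses splicing when dephosphorylated, was at 0.06 in Veh and 0.04 in Dex, and it kept a level of 96.4 to 98.1 cRPKM over the 4 libraries.

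**Figure D2:**
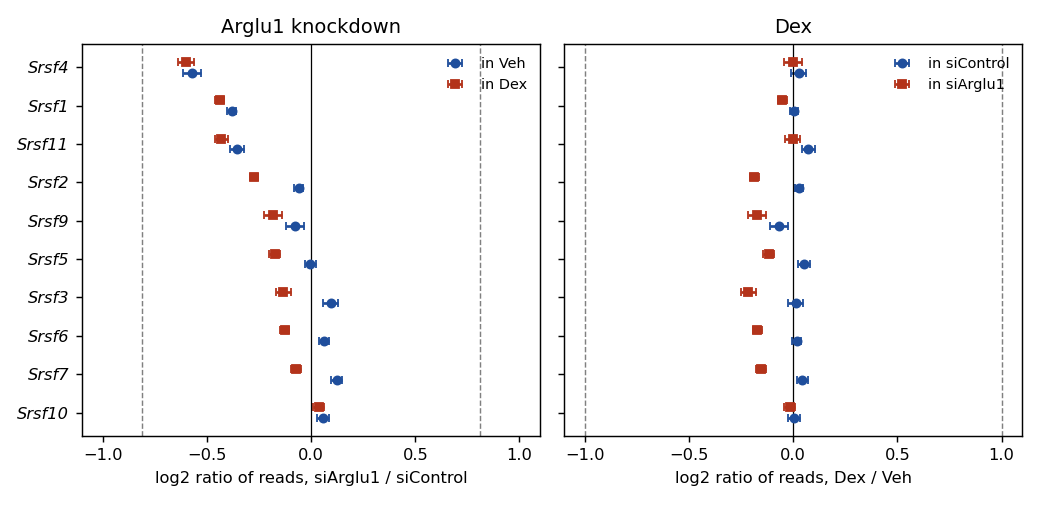
Log2 ratio of scaled reads for each SR gene, siArglu1 over siControl on the left (in Veh and in Dex) and Dex over Veh on the right (in siControl and in siArglu1); bars are exact 95% counting intervals and dashed lines mark 0.81 and 1. Srsf4, Srsf1 and Srsf11 lie at or below -0.36 in both knockdown pairs, and no gene reaches a dashed line.

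The 2 knockdown pairs share no library, and a model with knockdown and Dex as additive terms can be fitted across all genes with 1 residual degree of freedom. That degree of freedom is the difference between the 2 pairs, so its p values do not measure the spread between cultures. In this fit by edgeR's quasi-likelihood test, 3 of the 10 SR genes passed a Benjamini-Hochberg adjusted p of 0.05 for knockdown, and all 3 were lower. The same fit called 61.6% of all genes, and 30.9% of all genes as lower. Srsf4 had an adjusted p of 1.4e-11, Srsf11 of 6.4e-06 and Srsf1 of 7.9e-06. Srsf2 had an adjusted p of 0.064 and Srsf9 of 0.12 in this fit, and the other 5 had values from 0.28 to 0.96. By counting intervals alone, which are narrow at this depth, 5 SR genes (Srsf1, Srsf2, Srsf4, Srsf9 and Srsf11) were below 0 in both pairs, as were 32.2% of all genes, and Srsf10 was above 0, as were 34.8%. DESeq2 called 3 SR genes, all lower, and 48% of all genes (25.2% as lower).

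The second comparison asks whether Dex changed the SR genes. None passed the size of 1 on the log2 scale in either pair, which 0.464% of all genes passed in siControl and 0.392% in siArglu1, and 0.112% in both. In siControl the 10 log2 ratios lay between -0.07 (Srsf9) and 0.07 (Srsf11), with a median of 0.02. In siArglu1 all 10 were at or below 0, between -0.22 (Srsf3) and -0.00 (Srsf4 and Srsf11), with a median of -0.14 against 0.00 over all genes compared. That median of the SR genes was -0.07 with the length trend removed, and the range then ran from -0.21 (Srsf6) to 0.04 (Srsf4). With the trend left in, 6236 of all 12497 genes compared had a ratio below 0 in siArglu1.

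Srsf2 shows this pair in full: its reads were 36890 and 40295 under siControl and 34423 and 40166 under siArglu1. With siControl the log2 ratio of Dex to Veh was 0.03 (0.01 to 0.05), and with siArglu1 it was -0.19 (-0.21 to -0.17). In the additive edgeR fit, 0 of 10 SR genes were called for Dex (lowest adjusted p 0.999), none had an unadjusted p under 0.05, and 1.04% of all genes were called. DESeq2 called 0 SR genes and 0.416% of all genes. The knockdown pair in Veh and the Dex pair in siControl share the siControl Veh library.

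The third comparison asks whether the splicing of the SR genes changed. Of their 52 events, 47 had a percent spliced in (PSI) in all 4 libraries and a sufficient coverage score in at least 3 of them. These were 21 cassette exons, 16 events with alternative 3' splice sites (Alt3) and 10 with alternative 5' splice sites (Alt5). For Alt3 and Alt5 events that score stands for at least 20 junction reads, and its meaning for cassette exons was not checked. None of the 47 events differed by 15 PSI in any of the 4 pairs. Over all 57220 such events, 1.97% passed 15 PSI for knockdown in Veh, 1.54% for knockdown in Dex, 0.743% for Dex in siControl and 0.963% for Dex in siArglu1.

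Most of the 21 cassette exons were nearly always skipped or nearly always included. In 16 of them PSI stayed under 20 in all libraries, and in 4 it stayed over 95. The exon outside both ranges was a 36-nt exon of Srsf7 (chr17:80601509-80601544, mm9, minus strand), with a PSI of 71.7 and 73.0 under siControl and 75.1 and 73.5 under siArglu1.

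The cassette exons that moved most were 3 exons in the same intron of Srsf4. All are annotated in NMD transcripts and in no coding one, but a premature stop was placed only in the first. The first, of 207 nt (chr4:131440191-131440397, mm9, plus strand), holds the stop shown above for Srsf4-203. Its PSI was 5.42 and 6.46 under siControl and 12.9 and 13.3 under siArglu1.

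The second, of 184 nt (chr4:131441224-131441407), had a PSI of 7.96 and 7.81 under siControl, and of 16.2 and 17.1 under siArglu1. The third, of 174 nt (chr4:131442046-131442219), had 10.5 and 7.39 under siControl and 17.6 and 17.8 under siArglu1. In all 3 exons both siArglu1 libraries were above both siControl libraries. The differences were 7.50, 8.26 and 7.06 PSI in Veh and 6.83, 9.33 and 10.4 PSI in Dex.

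Each of these PSI values had the best coverage score. In Alt3 and Alt5 events this score stands for 100 or more junction reads, and its meaning for cassette exons was not checked. The exons share their flanks and can lie in the same message, so they are not independent of each other. None of the 3 carries, in any library, the code that the tables give when reads are balanced over the upstream and the downstream junction. Junction counts are not given for cassette exons, so no interval could be made for these PSI values.

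Srsf4 junctions that do not depend on these exons also had fewer reads. The junction set after the next exon (chr4:131447122-131447264) had 444 and 518 reads under siControl and 185 and 306 under siArglu1. Scaled to all junction reads in the Alt3 and Alt5 tables, its log2 ratio was -1.19 (-1.45 to -0.94) in Veh and -0.99 (-1.20 to -0.79) in Dex. The junctions into the third of the 3 exons, which are in an Alt3 event, had 45 and 33 reads under siControl and 31 and 63 under siArglu1. Their log2 ratio was -0.46 (-1.17 to 0.23) in Veh and 0.69 (0.07 to 1.35) in Dex. The interval in Veh overlapped that of the junction set after the next exon, and the interval in Dex did not.

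**Figure D3:**
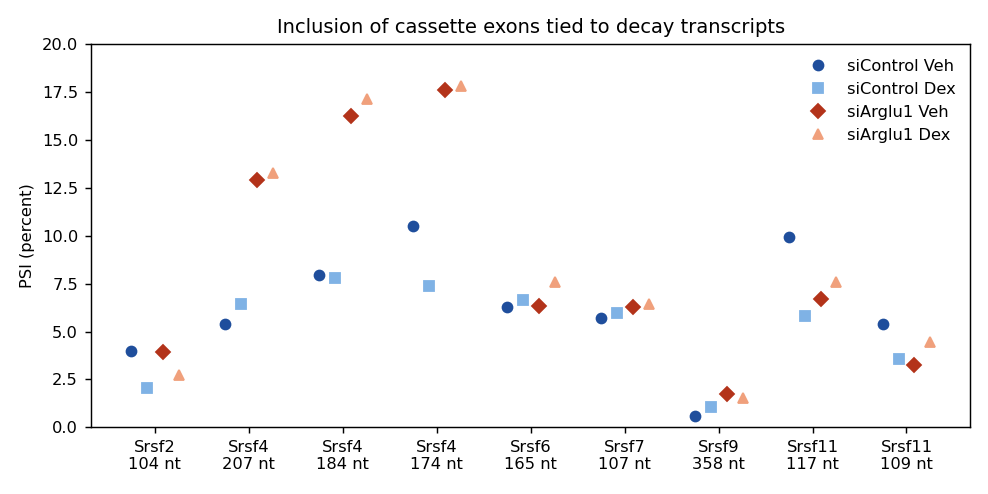
PSI in percent (linear axis from 0 to 20) of the 9 cassette exons of SR genes with a PSI under 20 in every library that match an NMD transcript or share the acceptor of an exon of one; each point is 1 library, named by gene and exon length. In the 3 exons of Srsf4 the siArglu1 points lie at 12.9 to 17.8 and the siControl points at 5.42 to 10.5, and in the other exons the groups lie close together or overlap.

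The exons tied to NMD transcripts in the other members showed no such separation in PSI, apart from small differences. In Srsf6 the 165-nt exon of the coding transcript, which shares only its acceptor with the NMD exon (chr2:162758551-162758715, plus strand) had a PSI of 6.26 and 6.65 under siControl and 6.32 and 7.56 under siArglu1. In Srsf7 the 107-nt exon, tied by its acceptor too (chr17:80604315-80604421, minus strand) had 5.73 and 5.96, then 6.27 and 6.43. In Srsf9 the 358-nt exon (chr5:115778356-115778713, plus strand) had 0.60 and 1.08, then 1.74 and 1.55. For Srsf7 and Srsf9 the siArglu1 values were above the siControl values, by less than 1.2 PSI in either pair.

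Srsf11 has 2 such exons, and both had their highest PSI in siControl Veh. The 109-nt exon (chr3:157687087-157687195, minus strand) had 5.37 and 3.59 under siControl and 3.23 and 4.44 under siArglu1. The 117-nt exon (chr3:157686207-157686323) had 9.95 and 5.80, then 6.72 and 7.61. Knockdown thus went with a lower PSI in Veh and a higher one in Dex. A 76-nt exon of Srsf11 found in a coding transcript had 2.61 and 1.40, then 1.11 and 0.00.

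In Srsf2, a 104-nt exon (chr11:116712962-116713065, minus strand) present in an NMD transcript and a coding one had a PSI of 3.99 and 2.03 under siControl and 3.94 and 2.72 under siArglu1. Both Dex libraries were below both Veh libraries, by 1.96 PSI in siControl and 1.22 in siArglu1. Of the 6 cassette exons found in NMD transcripts but in no coding one, 4 were higher in both knockdown pairs, of which 3 were those of Srsf4, and none was lower in both. The fourth was the 358-nt exon of Srsf9, higher by 1.14 PSI in Veh and 0.47 in Dex. Of all 21 SR cassette exons compared, 8 were higher in both pairs by any amount and 2 were lower. The share over all cassette exons by this rule was not counted.

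Srsf3, the smallest SR protein, has a poison exon of 456 nt (chr17:29176399-29176854, mm9, plus strand), which is not listed as a cassette exon but is the target of an Alt3 event. Reads over the junctions into it numbered 113 and 126 under siControl and 53 and 77 under siArglu1, so both siArglu1 libraries were lower. The log2 ratio was -1.01 (-1.52 to -0.54) in Veh and -0.94 (-1.37 to -0.52) in Dex. The reads of the whole gene were 11910 and 12867, then 12358 and 14136, with log2 ratios of 0.09 and -0.13. Within the event the acceptor of the 456-nt exon took 99.1% and 100%, then 98.1% and 98.7%, of the reads.

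Junction reads could be compared in 26 Alt3 and Alt5 events of the SR genes with at least 75 reads. Some Alt3 and Alt5 events of Srsf2 and Srsf7 share a junction and count mostly the same reads, so the 26 are not independent. The Srsf2 Alt3 event had 312 and 391 reads under siControl and 207 and 260 under siArglu1. Its Alt5 event had 312 and 392, then 207 and 260. In Veh 19 of the 26 were below 0 for knockdown and in Dex 22, with medians of -0.49 and -0.26. Over all 25018 events 15724 and 14053 were below 0, with medians of -0.21 and -0.07. In both pairs, 4 SR events were lower by 0.81 or more (6.9% of all events were) and 1 was higher (2.29%). The 4 were the Srsf3 event, 2 of Srsf4 and 1 of Srsf1.

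The Srsf1 event covers the junctions into an exon whose main acceptor, at chr11:87862545, is found in coding and in NMD transcripts. It had 1007 and 1129 reads under siControl and 544 and 734 under siArglu1. The main acceptor took 99.5% to 100% of the reads in every library. The log2 ratios of -0.82 and -0.85 were further from 0 than those of the whole gene, -0.38 and -0.44. With the ratio of its own gene subtracted, 0 SR events were lower by 0.81 in both pairs (0.943% of all events were) and 1 was higher (0.312%). The Srsf3 event was then at -1.11 and -0.807, just inside the size.

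The event that was higher was in Srsf5. It covers 4 donors of an exon that begins at chr12:82049116 (mm9, plus strand), with exon lengths from 37 to 534 nt, none of which matched a GENCODE exon. Its junctions had 56 and 58 reads under siControl and 103 and 144 under siArglu1. The log2 ratio was 0.95 (0.47 to 1.45) in Veh and 1.07 (0.63 to 1.54) in Dex, while the gene had -0.00 and -0.17. With the gene subtracted it was at 0.95 and 1.25. The other junction sets of Srsf5 had ratios between -0.10 and 0.07.

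Within this event the donor of the 534-nt form took 69.6% and 70.7% of the reads under siControl and 77.7% and 77.8% under siArglu1. The donor of the 427-nt form took 14.3% (6.38 to 26.2) and 22.4% (12.5 to 35.3), then 5.83% (2.17 to 12.2) and 9.03% (4.89 to 14.9). The siArglu1 shares were the lower ones, but the intervals of each pair overlapped.

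**Figure D4:**
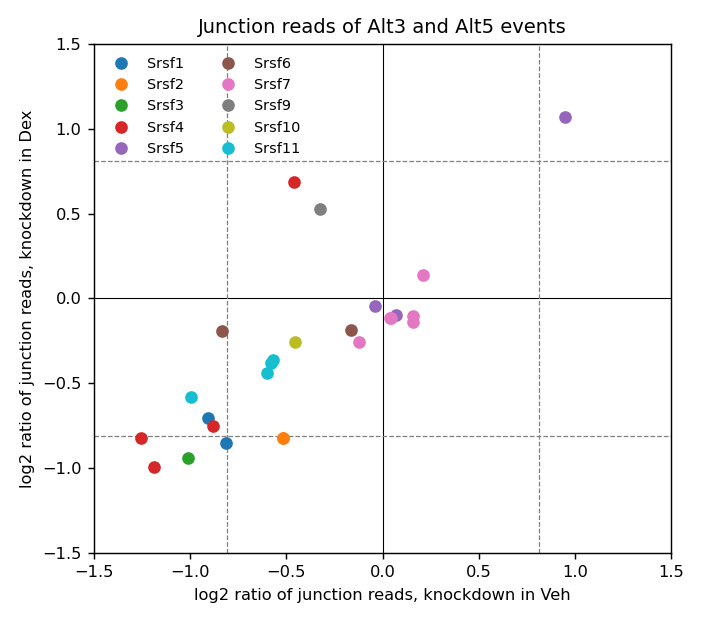
Log2 ratio of junction reads, siArglu1 over siControl, in Veh (horizontal) and in Dex (vertical) for the 26 Alt3 and Alt5 events of the SR genes, coloured by gene; dashed lines mark 0.81. An Srsf5 event lies alone beyond both dashed lines in the upper right, at 0.95 and 1.07. The Srsf3 event, those of Srsf1 and the Alt5 events of Srsf4 lie at the lower left. The Srsf4 Alt3 event lies at -0.46 and 0.69.

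A donor of an early exon of Srsf5 was measured with more reads. The exon begins at chr12:82046589 (mm9, plus strand) and ends either at 82046655, for 67 nt, or at 82046785, for 197 nt. Under siControl the longer form took 24.0% (21.3 to 26.9) of 908 junction reads and 23.8% (21.1 to 26.6) of 972. Under siArglu1 it took 17.6% (15.1 to 20.4) of 839 and 18.3% (16.1 to 20.7) of 1110. Both siArglu1 intervals lay below both siControl intervals, and the differences were -6.37 PSI in Veh and -5.48 in Dex.

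Srsf7, whose protein carries a zinc knuckle beside its RNA recognition motif, has 3 donors in an exon that gives forms of 30, 54 and 63 nt. The 63-nt form took 48.3% (45.7 to 50.8) of 1508 reads and 49.0% (46.6 to 51.5) of 1632 under siControl, and 43.6% (41.0 to 46.2) of 1475 and 44.9% (42.6 to 47.3) of 1774 under siArglu1. The siArglu1 shares were lower in both pairs, and the intervals of each pair overlapped. The 54-nt form took 39.4% (37.0 to 42.0) and 39.1% (36.7 to 41.5), then 45.4% (42.9 to 48.0) and 41.7% (39.5 to 44.1). Its siArglu1 shares were the higher ones, with intervals that did not overlap in Veh and overlapped in Dex.

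**Figure D5:**
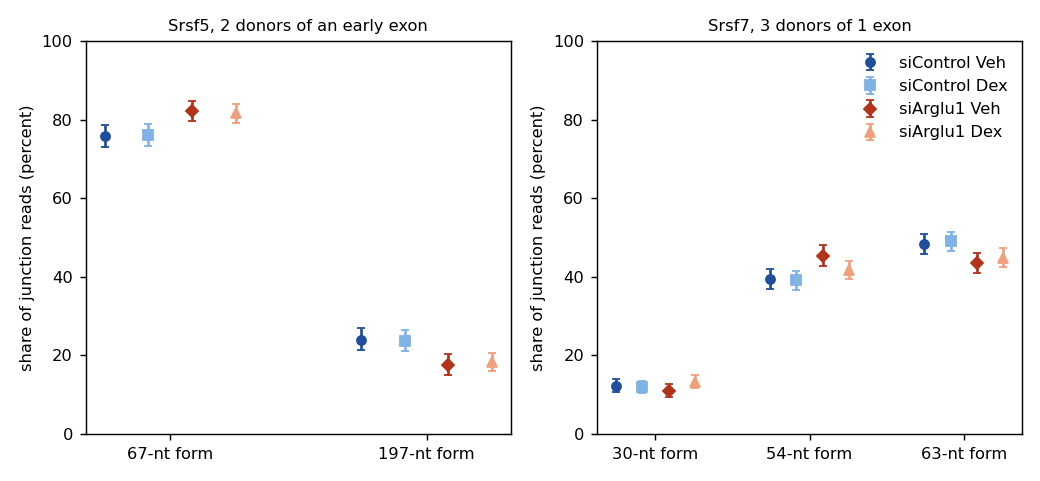
Share of junction reads in percent (linear axis from 0 to 100) that used each alternative donor of an Srsf5 exon (left) and an Srsf7 exon (right), by library; bars are exact 95% binomial intervals. The 197-nt form of Srsf5 sits at 23.8% and 24.0% in siControl and at 17.6% and 18.3% in siArglu1, and the Srsf7 forms differ by at most 6 percentage points within either knockdown pair.

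In Srsf9, an acceptor 11 bases upstream gives a 90-nt exon, found in an NMD transcript, in place of a 79-nt one (chr5:115781470-115781548). The 90-nt form took 87.1% (77.0 to 93.9) of 70 reads and 90.0% (76.3 to 97.2) of 40 under siControl, and 98.1% (89.9 to 99.95) of 53 and 95.6% (87.6 to 99.1) of 68 under siArglu1. The siArglu1 shares were higher by 11.0 and 5.59 PSI, and the intervals overlapped. In Srsf10, 1 of 5 acceptors took 73.8% and 75.5%, then 82.2% and 78.8%, of between 90 and 139 reads, with overlapping intervals. In Srsf1, Srsf2 and Srsf6, no comparable event that moved the same way in both knockdown pairs differed by 0.5 PSI in both.

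A smaller size, chosen after the values had been seen, was also looked at. It was 5 PSI in the same direction in both knockdown pairs, with the best coverage score in all 4 libraries. It was met by 4 of 38 SR events, the 3 Srsf4 exons found only in NMD transcripts and the early donor of Srsf5. Over all 29361 events, 3.25% met it. Of 19 SR cassette exons 3 were higher by this rule, all from the one intron of Srsf4, against 2.03% of all cassette exons, and 0 were lower, against 2.85%.

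Genes that work with the SR proteins were read from 3 lists. Of 24 other SR and SR-like genes 22 were in the table under the symbol given and 21 were compared, and 1 passed 0.81 for knockdown in Veh and 0 in Dex, though 16 and 18 had a ratio below 0. Of all 12497 genes compared, 15.7% passed 0.81 in Veh and 12.3% in Dex, and 6063 and 5983 had a ratio below 0. The median of the list was -0.33 in Veh and -0.29 in Dex, against 0.02 in both pairs over all genes compared. The gene that passed was Son, a scaffold of nuclear speckles, at -0.92 (-0.95 to -0.89) in Veh and -0.69 (-0.72 to -0.67) in Dex. Scaf4 was at -0.69 and -0.56. Rnps1, which joins SR proteins to the exon junction complex, was at -0.56 and -0.72.

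SR proteins are phosphorylated by the Srpk and Clk kinases and carried into the nucleus by Tnpo3. Of 16 such kinases, phosphatases and importins 14 were compared and none passed 0.81 in either pair. Over all genes compared, 15.7% passed it in Veh and 12.3% in Dex. The medians of the list were -0.25 and -0.26, against 0.02 in both pairs over all genes compared. The largest differences were in Srpk2 (-0.69 in Veh, -0.56 in Dex), Prpf4b (-0.62, -0.52) and Ppp2ca (-0.48, -0.59).

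Of 18 NMD factors, all compared, 2 were lower by 0.81 or more in Veh and 1 in Dex, where 8.39% and 5.69% of all genes were, and none was higher. Upf2, which bridges Upf1 to the exon junction complex, had 17.7 and 17.7 cRPKM under siControl and 6.80 and 7.56 under siArglu1. Its log2 ratio was -1.33 (-1.40 to -1.26) in Veh and -1.21 (-1.28 to -1.15) in Dex. Smg6, the endonuclease of the pathway, was at -1.07 and -0.80, and Smg1, the kinase of Upf1, at -0.78 and -0.51. The list had medians of -0.08 and -0.13, and 11 of 18 members were below 0 in each pair. Of all 12497 genes compared, 6063 were below 0 in Veh and 5983 in Dex. The part of the differences in NMD factors in the PSI of the exons tied to NMD transcripts was not tested.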

How the data were processed

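The authors pooled the mRNA of 3 N2a cultures per group, sequenced 1 polyA library per group on a HiSeq2500 and deposited a count of reads per gene, not normalized, with RPKM corrected for mappability (cRPKM). Per the labels, Bowtie and the build mm9 were used; the sources used here state no versions. The authors deposited PSI from vast-tools as a percent, with a coverage score and, for Alt3 and Alt5, junction reads. Blank reads were taken as 0. The authors' 2 unnamed columns of Dex over Veh cRPKM ratios were not used.

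Reads were scaled by TMM (edgeR 4.0.16, R 4.3.3) to log2 CPM with a prior count of 1, for genes with at least 75 reads over 4 libraries. Ratio intervals condition on the reads of both libraries, PSI intervals are Clopper-Pearson, and junction reads were scaled to their total with 0.5 added. The additive models used edgeR and DESeq2 1.42.0. The length trend was a lowess fit (span 0.3) on reads over cRPKM. Events were matched to GENCODE M21 transcripts by exon and intron lengths, since the builds differ, and sequences come from those transcripts. Scripts were tested on simulated data.

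All 10 members are named. Of events, any past 15 PSI and, per member, the event with the largest smaller difference among those moving the same way in both knockdown pairs are named, with the exons matched to NMD transcripts. Listed genes were named by the smaller absolute ratio of both pairs. The members, lists and sizes were chosen with earlier results of these data known.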

Additional observations from a re-analysis of the deposited data

Results flagged for a closer look

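Some values moved in opposite directions in the 2 pairs of a contrast. These differences were not tested, since each group is 1 library. For genes, both counting intervals left out 0. For knockdown, the log2 ratio in Veh less that in Dex was 0.20 for Srsf7, 0.19 for Srsf6 and 0.23 for Srsf3. For Dex, the log2 ratio in siControl less that in siArglu1 was 0.21 for Srsf2, 0.17 for Srsf5 and 0.20 for Srsf7.

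For splicing, events that moved by 1.5 PSI or more in opposite directions were taken. The 117-nt exon of Srsf11 differed by -5.04 PSI between the knockdown in Veh and that in Dex. The 2 acceptors of an early Srsf11 exon, 3 bases apart, differed by -3.99 and 3.99 PSI for knockdown and by the same amounts for Dex, with 96 to 223 reads per library. For Dex, siControl less siArglu1, an acceptor in Srsf10 differed by 5.08 PSI. In the same contrast, an acceptor of the third Srsf4 exon found only in NMD transcripts differed by -8.23 on 31 to 63 reads. The acceptors of the Srsf9 event differed there by -5.38 and 5.38 on 40 to 70 reads.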

How the results depend on the processing

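With 1 library per group, counting error is covered and the spread between cultures is not. No paired analysis was possible because each group is 1 library, so no replicates can be matched across groups; the additive fits compare siArglu1 with siControl within Veh and within Dex.

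No SR gene passed the size for knockdown or Dex with DESeq2 size factors, total reads, cRPKM plus 0.1, a prior count of 5 or the length trend removed. None passed with no minimum, 1000 reads or a size of 1.5 either. Those settings could not add an SR gene, because all 10 were already compared and 1.5 is a larger size. At 0.5, 1 SR gene (Srsf4) passed in Veh and 1 in Dex. Over both knockdown pairs the count was 0, 3 in the additive edgeR fit, 3 in that of DESeq2, and 6 where counting intervals left out 0 the same way in both pairs (1 higher, 5 lower, where 34.8% and 32.2% of all genes were; chosen after seeing the data). The member ratios with no minimum and with 1000 reads equal the main ones, so they could not move. With them counted in, 58 of 280 member ratios moved by more than their interval allows, 23 of them with the length trend removed. Of the 280, 13 changed sign, 12 of them for Dex. The cause of these shifts was not tested.

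No SR event passed 15 PSI with a higher coverage score in all libraries, which means 40 or more reads in Alt3 and Alt5 events. None passed with complex events left out or at 25 PSI. Such settings only drop events or raise the size. They could not add an SR event, because none of the 47 passed 15 PSI in the main comparison, so they do not test that result. At 10 PSI, 2 passed for knockdown in Veh (Alt3 events of Srsf4 and Srsf9) and 2 in Dex (the 174-nt exon of Srsf4 and a donor of Srsf5). Without a coverage minimum, 2 passed for knockdown in Dex, 2 for Dex in siControl and 1 for Dex in siArglu1. All had the lowest coverage score, which in Alt3 and Alt5 events stands for fewer than 10 reads. At 5 PSI in both pairs, 4 passed.

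Counts over all genes past the size ranged from 382 to 4376 for knockdown in Veh (main 1957), 297 to 3738 in Dex (1531), 8 to 1847 for Dex in siControl (58) and 7 to 1351 in siArglu1 (49). Over all events they ranged from 222 to 5392 (1129), 186 to 4817 (881), 51 to 4188 (425) and 111 to 4504 (551).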
